A study of Mus musculus with 18 samples.

Results

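This account covers 10 of the 35642 genes in the deposited expression table, chosen by symbol: Acta2, Tagln, Tpm1, Tpm2, Myl9, Cnn1, Cnn2, Actn1, Flna and Dbn1, which encode actin, actin-binding and myosin-linked proteins. They were measured by RNA sequencing of polyA RNA in 18 libraries from 2 mouse pancreatic tumour cell lines, 1151 and 2838. Both lines were derived from KPCY animals, in which Cre recombinase driven by the Pdx1 promoter activates, among other alleles, mutant Trp53 (R172H) and a yellow fluorescent reporter in pancreatic epithelium. The study varied Mcu, whose protein forms the channel that lets calcium into mitochondria, and all cells were untreated. In line 1151, floxed Mcu had been removed by Cre according to the labels, and the cells carried either an empty vector (labelled knockout, 3 libraries) or MCU put back (labelled re-expressing, 3 libraries). Both 1151 populations were kept in puromycin. Line 2838 was measured as 4 single clones with 3 libraries each. Clones 15 and 22 were labelled wild type and carried an empty vector, and clones 17 and 42 were labelled CRISPR knockout, with no vector named. The labels put 1151 in batch 1 and 2838 in batch 2, and line and batch cannot be told apart.

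Actin filaments and non-muscle myosin give a cell its shape and its ability to pull. Serum response factor (SRF) binds a DNA element called the CArG box and, with its partners MRTF-A and MRTF-B, drives many genes of the actin cytoskeleton. When actin monomers are used up into filaments, the MRTF proteins are freed to enter the nucleus. With another set of partners, the ternary complex factors of the Elk family, SRF drives immediate-early genes such as Fos. Acta2, Tagln, Cnn1 and Myl9 are best known from smooth muscle and myofibroblasts, whereas Tpm1, Cnn2, Actn1 and Flna are also made by many epithelial and tumour cells.

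The promoters carried the CArG box unevenly. The CArG box was searched as CC, then 6 bases that are A or T, then GG, on RefSeq promoters (GRCm38.p6) from 250 bases before to 50 after each annotated start. The pattern is its own reverse complement, so a match on one strand is a match on the other. An exact match was present in 1.63% of all 32851 promoters, and a match with at most 1 mismatch in 21.1%. Of the 9 genes with an entry (all but Tagln), 2 had an exact match, Cnn2 and Myl9. The exact match began 56 bases before the Cnn2 start and 161 bases before the Myl9 start. With at most 1 mismatch, Acta2, Tpm1 and Flna also had matches, which made 5 of 9. No match at either stringency was present in this window of Tpm2, Cnn1, Actn1 or Dbn1. Of the genes of a list of other actin and SRF-MRTF genes, 8 of 29 had an exact match, and 14 of 29 had one with at most 1 mismatch. A match describes letters only, and binding was not measured. The sequences below are printed 5′ to 3′ on the strand of the gene, upstream of any GENCODE exon of that gene, with matches of at most 1 mismatch in capitals. Cnn2 (chr10:79988350-79988583, plus strand) and Myl9 (chr2:156775214-156775419, plus strand) are shown because an exact match lies next to a gene at a high level in the first case and near 0 in the second. Srf (chr17:46556176-46556412, minus strand) is shown as the factor's own promoter, and Dbn1 (chr13:55488112-55488326, minus strand) as a gene with no match whose level was separate in each group.
Cnn2: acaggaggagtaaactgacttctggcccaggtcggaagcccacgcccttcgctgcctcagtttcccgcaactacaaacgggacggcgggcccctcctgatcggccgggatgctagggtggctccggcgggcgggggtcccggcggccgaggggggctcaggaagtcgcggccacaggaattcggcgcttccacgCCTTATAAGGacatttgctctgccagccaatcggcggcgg
Myl9: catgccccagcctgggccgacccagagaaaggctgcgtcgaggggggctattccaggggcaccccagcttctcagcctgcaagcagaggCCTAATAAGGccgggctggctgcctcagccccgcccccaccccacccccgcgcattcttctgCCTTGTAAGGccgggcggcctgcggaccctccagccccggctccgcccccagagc
Srf: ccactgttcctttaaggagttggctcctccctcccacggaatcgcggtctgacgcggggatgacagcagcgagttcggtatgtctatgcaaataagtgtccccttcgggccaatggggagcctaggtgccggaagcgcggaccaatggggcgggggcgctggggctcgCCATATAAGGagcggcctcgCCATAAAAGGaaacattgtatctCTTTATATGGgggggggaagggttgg
Dbn1: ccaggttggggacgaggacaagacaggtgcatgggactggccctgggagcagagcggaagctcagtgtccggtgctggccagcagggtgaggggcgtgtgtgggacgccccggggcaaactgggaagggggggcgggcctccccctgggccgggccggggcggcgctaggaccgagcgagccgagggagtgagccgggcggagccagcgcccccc
The Myl9 stretch held CCTAATAAGG (0 mismatches) and, 99 bases before the start, CCTTGTAAGG (1 mismatch). The Cnn2 stretch held CCTTATAAGG. The Srf stretch held 2 exact matches, 82 and 62 bases before the start, and another with 1 mismatch at 39 bases.

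**Figure D1:**
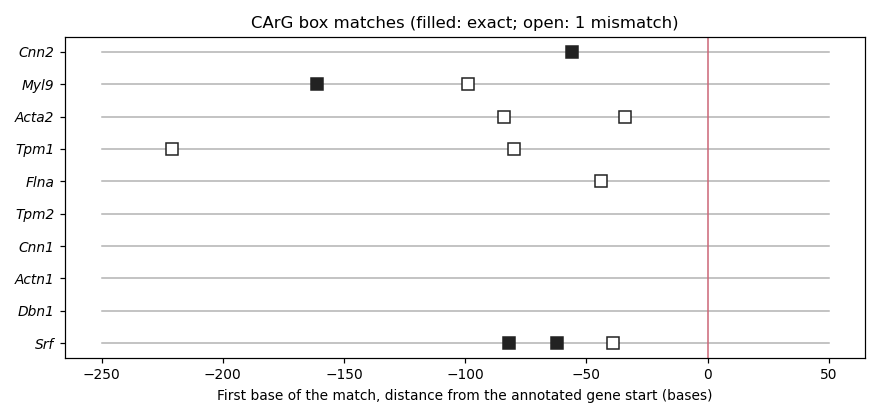
Positions of CArG-box matches (x axis, bases from the annotated start, negative before it) in RefSeq promoters. Rows (y axis) are the described genes except Tagln, which has no entry, and Srf. Exact matches and matches with 1 mismatch have separate symbols, and among the described genes Cnn2 (56 bases before the start) and Myl9 (161 bases before it) have exact ones.

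Values were TPM, transcript abundance per length scaled to one total, so the read depth was unknown. Mcu RNA was 13.1 to 16.6 TPM in all 6 libraries of line 1151, whichever label they carried. In 2838 it was 68.4 to 81.2 TPM in clone 15, 59.3 to 96.3 TPM in clone 22, 113 to 122 TPM in clone 17 and 10.5 to 12.3 TPM in clone 42. Mcu RNA therefore followed the knockout label in clone 42 and not in clone 17 or in line 1151, and groups are named below by their labels. Replicate 3 of clone 22 stood apart with 10760 genes at 1 TPM or more, against 11207 to 11507 in the other 17 libraries. The 6 ductal epithelial markers summed to 4443 to 6944 TPM, mostly of keratins, while Epcam, one of the 6, was at most 1.67 TPM in any library. The 4 leukocyte and endothelial markers summed to 1.74 to 6.66 TPM and the 4 acinar markers to 0 to 29.3 TPM. Of 12 fibroblast and pericyte markers none reached 1 TPM in any library, 3 were listed at 0 in all 18, and the sum was 0.203 to 1.19 TPM. That sum was 0.682 to 1.19 TPM in the 1151 libraries labelled knockout and 0.303 to 0.578 TPM in those labelled re-expressing, and its part in the results below was not tested. Of 9 smooth muscle markers, Smtn, Mylk and Des reached 1 TPM in some library, and the sum of the list was 18.7 to 36.5 TPM.

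The genes best known from smooth muscle were at or near 0 in these cells. Acta2, smooth muscle alpha-actin (chromosome 19, 34241090 to 34255590, minus strand; gene coordinates here and below are mm10 from GENCODE M21), was 0.135, 0.318 and 0.232 TPM in the 1151 libraries labelled knockout and listed at 0 in the 3 labelled re-expressing. In 2838, Acta2 was listed at 0 in 8 of 12 libraries, with 0.275 TPM as its highest value, in clone 15. Cnn1, the smooth muscle calponin that binds actin and dampens myosin's ATPase (chromosome 9, 22099216 to 22109630), was 0.501, 0.391 and 0.515 TPM in the 1151 libraries labelled knockout. It was listed at 0 in those labelled re-expressing and reached at most 0.125 TPM in 2838. Myl9, a myosin regulatory light chain (chromosome 2, 156775420 to 156781658), was listed at 0 in 12 of the 18 libraries. Its highest values were 1.04 and 0.460 TPM, in replicates 3 and 2 of clone 22. Acta2 and Cnn1 did not overlap between the 1151 arms, and Myl9 did. None of these 3 genes reached 1 TPM in 3 libraries of a fit, so they did not pass the filter and have no test in the main analysis. With no filter, the 1151 difference was 0.29 for Acta2 (limma, adjusted p = 0.0103), 0.55 for Cnn1 (adjusted p = 3.40e-04) and 0.14 for Myl9 (adjusted p = 0.148), all on the log2(TPM + 1) scale. All 3 were listed at 0 in every re-expressing library and entered that fit only through knockout-labelled ones. Their adjusted p-values add no separate support. A value listed at 0 can be a failed estimate, so no fold is given.

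Tagln, transgelin or SM22, an actin-bundling protein of smooth muscle (minus strand of chromosome 9, 45929619 to 45936058), was low in every library, from 1.01 to 4.13 TPM. In 1151 it was 1.04, 2.09 and 3.25 TPM in libraries labelled knockout and 3.34, 1.32 and 1.18 TPM in those labelled re-expressing, so the arms overlapped. The difference was 0.097 (SE 0.35, limma, adjusted p = 0.825). The 4 clones of 2838 ranged from 1.01 TPM (clone 22) to 4.13 TPM (clone 17). Neighbours in the order of group means overlapped, while clone 22 (1.01 to 1.98 TPM) lay just below clone 42 (2.02 to 2.30 TPM). Its paralog Tagln2, the form made by most non-muscle cells, made up at least 99.6% of the family's summed TPM in each group on average.

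**Figure D2:**
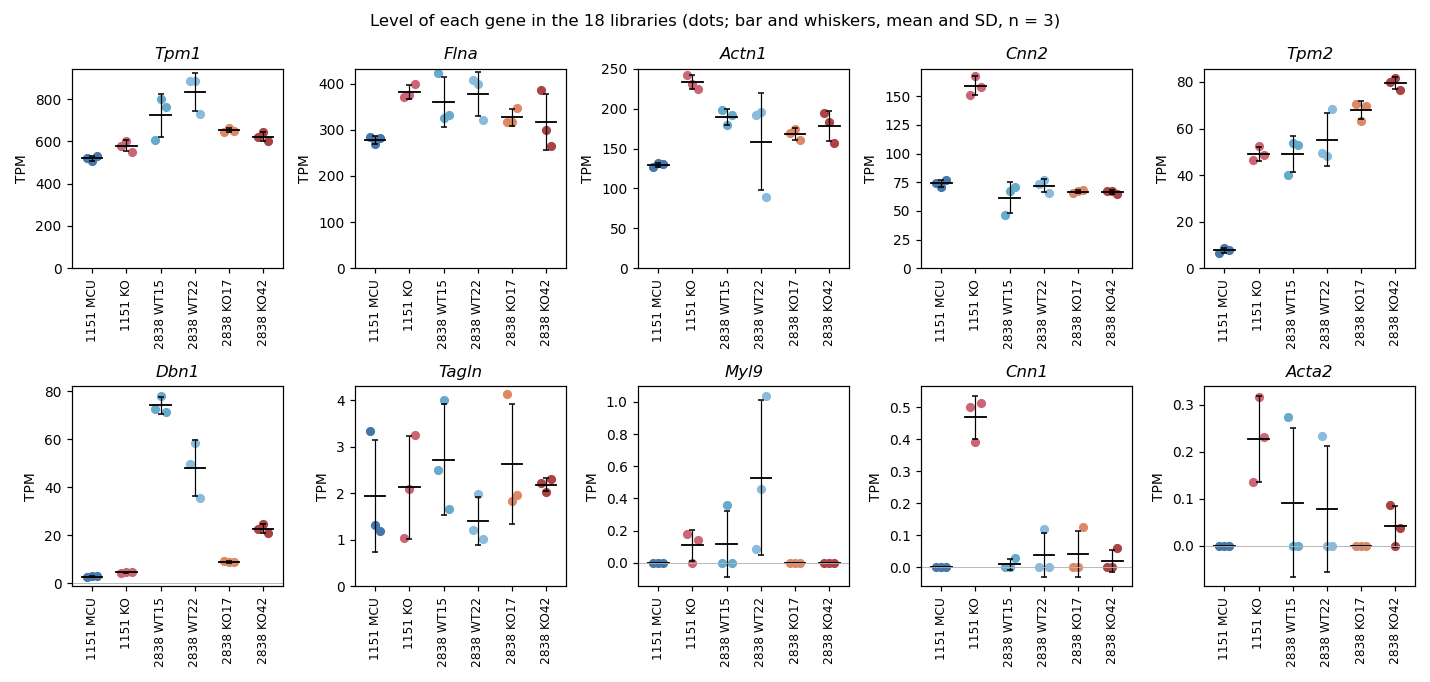
TPM of each of the 10 genes (1 panel a gene, y axis from 0) in the 18 libraries by group (x axis); dots are libraries, the bar is the mean and the whiskers the SD (n = 3). Acta2, Myl9, Cnn1 and Tagln stay under 5 TPM, Tpm2 is lowest in 1151 re-expressing libraries (6.34 to 8.65 TPM), Cnn2 is highest in 1151 knockout-labelled ones (151 to 168 TPM), and Dbn1 takes a separate level in each group.

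In line 1151, 5 of the 7 genes that passed the filter rose in libraries labelled knockout relative to those labelled re-expressing, and none fell. The 5 were Tpm2, Cnn2, Actn1, Dbn1 and Flna. Over all genes tested, 61.0% were called in this comparison (adjusted p under 0.05), 34.0% higher and 27.0% lower, so a call alone says little here. The median difference of the 7 genes was 0.57 on the log2(TPM + 1) scale, beside 0.055 over all genes. By library, 8 of the 10 genes were higher in every library labelled knockout than in any labelled re-expressing, the exceptions being Tagln and Myl9. Of all genes tested, 67.2% had arms that did not overlap, counted in both directions, and the higher direction alone was not counted. That share covers only genes past the filter, whereas the 8 include Acta2 and Cnn1, which did not pass it. In bulk RNA, fewer cells of a type and less RNA per cell cannot be told apart. Whether the 3 libraries of a group were separate cultures is not stated in the labels, so the p-values may measure technical spread only.

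Tropomyosins lie along actin filaments and set which motors and severing proteins reach them. Tpm2, beta-tropomyosin (minus strand of chromosome 4, 43514711 to 43523765), was 46.5, 52.4 and 48.7 TPM in 1151 libraries labelled knockout. It was 6.34, 8.65 and 7.94 TPM in those labelled re-expressing. The arms lay far apart beside their spread, with means of 49.2 ± 2.99 and 7.64 ± 1.19 TPM (SD, n = 3). The difference was 2.55 on the log2(TPM + 1) scale (SE 0.11, limma, adjusted p = 4.90e-06), the largest of the 7 genes tested. All 12 libraries of 2838 held Tpm2 at 40.2 to 81.6 TPM, so the re-expressing 1151 libraries were below every other library, while the knockout-labelled ones lay within the range of 2838. Tpm1, alpha-tropomyosin (minus strand of chromosome 9, 67022590 to 67049406), was the most abundant of the 10 genes in every group. It was 581, 604 and 551 TPM in knockout-labelled and 520, 508 and 531 TPM in re-expressing 1151 libraries. The Tpm1 arms did not overlap, but the difference of 0.15 (SE 0.058) missed the threshold (limma, adjusted p = 0.0529). It passed with quantile normalization (0.23, adjusted p = 0.0234) and without knockout-labelled replicate 3 (0.19, adjusted p = 0.0132).

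The tropomyosin family as a whole kept its summed level while its make-up changed. The 4 tropomyosin genes summed to 1405 TPM in knockout-labelled and 1399 TPM in re-expressing 1151 libraries. Tpm2 took 3.50% ± 0.171 of that sum in the former and 0.547% ± 0.0907 in the latter (SD, n = 3). Tpm1 took 41.2% ± 0.479 and 37.1% ± 0.269. Tpm4, a short non-muscle tropomyosin, was lower, at 274 ± 5.63 against 364 ± 4.49 TPM (-0.41, limma, adjusted p = 3.41e-04), and its share was 19.5% against 26.0%. Tpm3 was 503 ± 15.9 and 508 ± 13.6 TPM, a difference of -0.013 (adjusted p = 0.847). In 2838 the share of Tpm2 was 2.38% in clone 15, 2.55% in clone 22, 2.94% in clone 17 and 4.17% in clone 42. The shares are descriptions and were not tested.

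Calponin 2, encoded by Cnn2 (chromosome 10, 79988584 to 79996062), is the calponin of non-muscle cells and stabilises actin filaments. Cnn2 was 151, 168 and 158 TPM in 1151 libraries labelled knockout and 74.0, 71.0 and 76.7 TPM in those labelled re-expressing. The difference was 1.10 (SE 0.060, limma, adjusted p = 1.18e-05). The other groups resembled the re-expressing libraries: all 12 libraries of 2838 lay between 46.2 and 77.1 TPM, below each knockout-labelled 1151 library. Chromosome 10, which carries Cnn2, had a median difference of 0.34 over 560 genes in 1151. Centred per chromosome, an alternative chosen after seeing the data, the Cnn2 difference was 0.71 and kept its call. Cnn2 made up 52.8% ± 1.99 of summed calponin TPM in knockout-labelled 1151 libraries and 32.9% ± 0.394 in re-expressing ones (SD, n = 3), and 16.0% in clone 15, 19.3% in clone 22, 20.4% in clone 17 and 27.1% in clone 42 of 2838. The rest was almost wholly Cnn3, the acidic calponin, at 142 ± 8.40 and 150 ± 3.20 TPM (-0.082, limma, adjusted p = 0.265).

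Alpha-actinin 1 and filamin A cross-link actin filaments, the first into parallel bundles at adhesions, the second into orthogonal networks under the membrane. Actn1 (minus strand of chromosome 12, 80167547 to 80260371) was 243, 232 and 225 TPM in 1151 libraries labelled knockout and 127, 131 and 131 TPM in those labelled re-expressing. The difference was 0.84 (SE 0.051, limma, adjusted p = 1.83e-05). In 2838, Actn1 was 157 to 198 TPM in 11 libraries and 88.9 TPM in replicate 3 of clone 22, the library with the fewest genes at 1 TPM. Each knockout-labelled 1151 library was above all of them. Flna (minus strand of chromosome X, 74223461 to 74249820) was 371, 375 and 400 TPM in knockout-labelled and 284, 269 and 283 TPM in re-expressing 1151 libraries. The difference was 0.45 (SE 0.056, limma, adjusted p = 4.34e-04). Flna in 2838 ranged from 265 to 424 TPM, across the range of both 1151 arms. The order of its 6 group means therefore shows no pair of neighbours that is separate.

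Paralogs of both cross-linkers also rose in 1151. Actn4, the other non-muscle alpha-actinin, was 384 ± 26.2 TPM in knockout-labelled and 265 ± 8.03 TPM in re-expressing libraries (0.54, limma, adjusted p = 4.10e-04), and Actn1 held 37.8% and 32.9% of the family. Flnc, the filamin of muscle, was 105 ± 8.50 and 7.51 ± 0.320 TPM (3.64, adjusted p = 2.64e-07). Among the regulatory light chains, Myl9 held at most 0.0409% of a group's sum on average. The difference between 1151 arms lay in Myl12a, at 614 ± 48.9 and 296 ± 13.7 TPM (1.05, adjusted p = 3.70e-05), a near-identical paralog of Myl12b whose reads the authors' counting could split between the 2 genes.

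**Figure D3:**
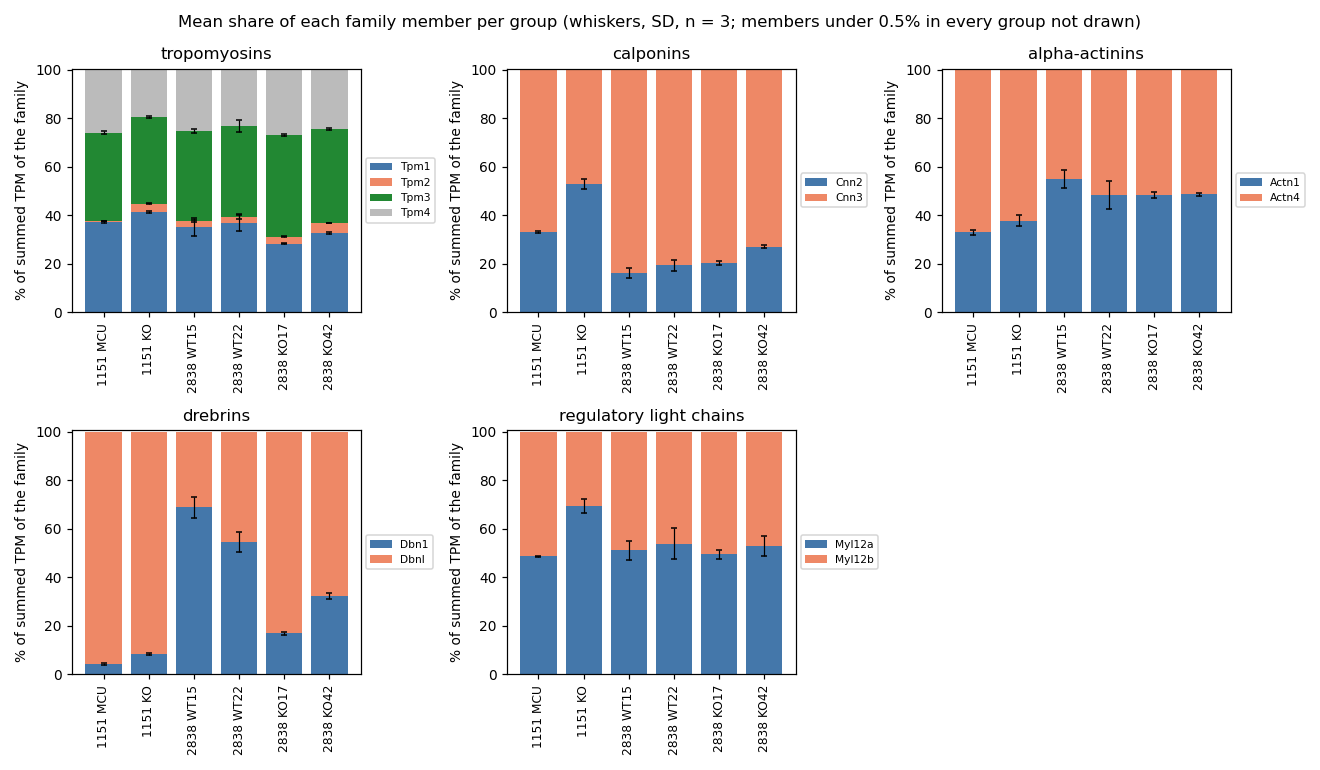
Share of the summed TPM of each gene family (y axis, %) held by each of its genes in the 6 groups (x axis); bars are group means and whiskers the SD (n = 3). In 1151 the Cnn2 share is 32.9% in re-expressing and 52.8% in knockout-labelled libraries, and the Dbn1 share runs from 4.08% (1151 re-expressing) to 68.9% (2838 clone 15).

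Dbn1 was the only one of the 10 genes whose libraries did not overlap between any 2 of the 6 groups. It encodes drebrin, an actin side-binding protein known from neurons and from cell junctions (chromosome 13, 55473429 to 55488111, minus strand). In 1151, Dbn1 was 4.24, 4.73 and 4.64 TPM in libraries labelled knockout and 2.56, 2.79 and 2.84 TPM in those labelled re-expressing (0.57, SE 0.091, limma, adjusted p = 0.00148). In 2838 it was 72.7, 78.2 and 71.3 TPM in clone 15 and 49.7, 58.5 and 35.3 TPM in clone 22, both labelled wild type. The clones labelled knockout were lower: 9.16, 8.70 and 8.66 TPM in clone 17, and 22.6, 24.8 and 20.8 TPM in clone 42. No 2 neighbouring groups in the order of means overlapped, from 2.73 ± 0.151 TPM in 1151 re-expressing libraries to 74.1 ± 3.62 TPM in clone 15 (SD, n = 3). Between the 2838 arms, Dbn1 was the one gene of the 10 whose libraries did not overlap, beside 5.04% of all genes tested, counted in both directions.

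Taking the clone as the unit in 2838, with 2 clone means on each side, none of the 7 genes tested passed an adjusted p of 0.05, and 0.0763% of all genes did (9 of 11795; 0.0254% higher and 0.0509% lower). At an unadjusted p under 0.05 there were 2, Dbn1 and Tpm2, and the share of all genes at that threshold was not counted. The Dbn1 difference was -1.97 (SE 0.40, limma, adjusted p = 0.171), and the Tpm2 difference was 0.50 (SE 0.21, adjusted p = 0.855). The remaining 5 lay between -0.28 (Tpm1) and 0.19 (Tagln). A second reading, with libraries as the unit, asked for a call of one sign in each of the 4 pairs of a clone labelled knockout and a clone labelled wild type, which 1.01% of all genes met (0.492% higher and 0.517% lower). Dbn1 met it as the one gene of the 10. Its differences were -2.93 for clone 17 against 15, -2.28 for 17 against 22, -1.66 for 42 against 15 and -1.01 for 42 against 22. In those pairs 10.7%, 6.49%, 12.3% and 10.3% of all genes were called, in the same order. The largest of the 4 adjusted p-values was 0.00301. Those pairwise p-values rest on the spread between libraries of a clone and do not see the spread between clones.

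Clones with one label also differed in Dbn1. It was higher in clone 42 than in clone 17 by 1.27 (SE 0.17, limma, adjusted p = 4.63e-04), the one call among the 7 genes in that comparison, in which 17.2% of all genes were called (8.23% higher and 8.99% lower). Clone 17 had more Mcu RNA than either wild-type clone and clone 42 had less, yet both had less Dbn1 than clones 15 and 22. Clone 22 was below clone 15 by 0.65 (SE 0.17, adjusted p = 0.0831), a comparison with 1.92% of all genes called (0.577% higher and 1.34% lower). That difference passed with median-of-ratios scaling (-0.49, adjusted p = 0.0349), with quantile normalization (-0.59, adjusted p = 0.0118), and without clone 22 replicate 2 (-0.80, adjusted p = 0.0406) or replicate 3 (-0.45, adjusted p = 0.0260). Dbnl, the drebrin-like relative that also binds actin, took the larger part of the family in 1151 and in clones 17 and 42. Dbn1 made up 68.9% ± 4.29 of the sum in clone 15, 54.5% ± 4.28 in clone 22, 16.8% ± 0.539 in clone 17 and 32.2% ± 1.07 in clone 42 (SD, n = 3). In 1151 its share was 8.13% ± 0.358 in knockout-labelled and 4.08% ± 0.271 in re-expressing libraries. Dbnl was lower in the knockout-labelled libraries, at 51.2 ± 2.62 against 64.2 ± 1.43 TPM (-0.32, limma, adjusted p = 0.00255).

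Tpm2 was the nearest to Dbn1 in separating the 2838 clones, in the other direction. It was 40.2, 53.9 and 52.8 TPM in clone 15 and 49.5, 48.1 and 68.2 TPM in clone 22. It was 70.6, 63.4 and 69.7 TPM in clone 17 and 80.1, 81.6 and 76.6 TPM in clone 42. Only replicate 3 of clone 22, at 68.2 TPM, reached into the range of a clone labelled knockout. One of its 4 pairs passed (clone 42 against 15, 0.70, limma, adjusted p = 0.0125), and 42 against 22 had an adjusted p of 0.0505. Without replicate 3 of clone 22, Tpm2 passed in all 4 pairs. Tpm1 was 609, 801 and 764 TPM in clone 15, 888, 884 and 730 TPM in clone 22, 646, 663 and 650 TPM in clone 17, and 620, 645 and 601 TPM in clone 42. Tpm1 was lower in clone 42 than in clone 22 (-0.42, limma, adjusted p = 0.0456), and no other of its pairs passed. The count of Tpm1 pairs that passed was 0 to 2 over the alternatives. It stayed at 1 in 3 of 9 alternatives and in 1 of 12 fits leaving out a library. Cnn2, Actn1, Flna and Tagln had no pair that passed.

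**Figure D4:**
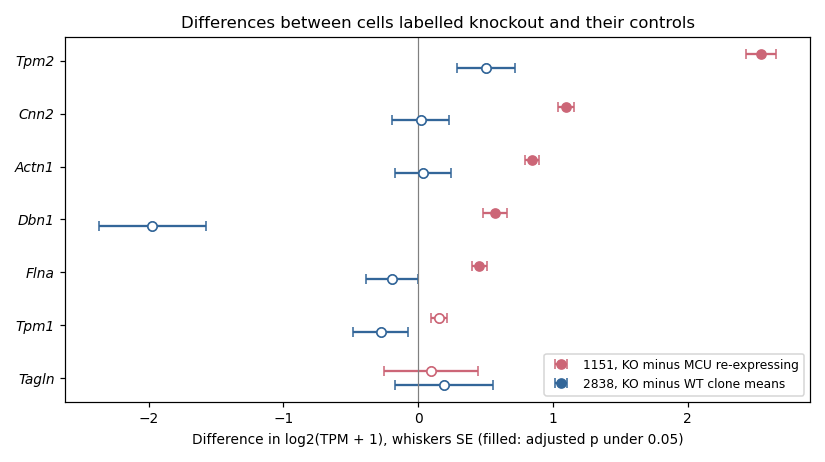
Differences in log2(TPM + 1) with SE whiskers (x axis) for the 7 genes tested (y axis), libraries labelled knockout minus the others in each line; filled symbols have an adjusted p under 0.05. In 1151, Tpm2 (2.55), Cnn2 (1.10), Actn1 (0.84), Dbn1 (0.57) and Flna (0.45) are filled and positive, while in 2838 Dbn1 sits at -1.97 and no gene passes on clone means.

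The difference between the effects in 1151 and 2838 was tested on the 6 group means. The means of the 1151 arms are fitted exactly, so a gene's own spread in this fit comes only from the 2838 clones. No gene of the 7 passed, beside 1.10% of all genes (0.658% higher and 0.441% lower). At an unadjusted p under 0.05 there were 4, and the share of all genes at that threshold was not counted. The interaction was 2.04 for Tpm2 (SE 0.29, limma, adjusted p = 0.0854), 1.08 for Cnn2 (SE 0.25, adjusted p = 0.216), 0.65 for Flna (SE 0.20, adjusted p = 0.309) and 0.81 for Actn1 (SE 0.29, adjusted p = 0.357). For Dbn1 it was 2.54 (SE 0.93, adjusted p = 0.361), with the 2 clones of each label far apart. Taking the 18 libraries as units in place of the groups, 6 of the 7 passed, all but Tagln, with adjusted p from 3.12e-07 (Tpm2) to 0.0323 (Actn1, limma). That fit takes the libraries of a clone as independent. The share of 1.10% does not belong to it, and calls of the interaction over all genes ran from 0 to 3140 across the alternatives. Calls of Tpm2, Cnn2, Actn1 and Flna in 1151 and their absence in 2838 were therefore not shown to differ once the clone was the unit, a fit with little power at differences of this size, so the missing calls do not show that the lines acted alike.

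SRF and its partners were measured as well. In 1151, 5 of the 7 tested genes of this list rose in libraries labelled knockout and 2 fell, in a comparison that called 61.0% of all genes. The count of rises was 3 centred per chromosome, and the count of falls was 1 with a replicate block and without either of knockout-labelled replicates 1 and 2 or re-expressing replicates 1 and 2. Srf itself was 50.7, 48.5 and 31.2 TPM in knockout-labelled and 26.1, 28.2 and 21.3 TPM in re-expressing libraries (0.74, SE 0.19, limma, adjusted p = 0.0139). Mrtfa was 27.4 ± 0.912 and 14.7 ± 0.310 TPM (0.86, adjusted p = 3.24e-05), and Mrtfb was 8.26 ± 1.06 and 6.05 ± 0.677 TPM (0.39, adjusted p = 0.0242). Elk3 (0.37) and Scai, a repressor of MRTF (0.58), also rose, while Elk1 (-0.24) and Elk4 (-0.37) fell. The median difference in 1151 was 0.45 over chromosome 15 (Mrtfa), 0.31 over 17 (Srf) and 0.34 over 10 (Elk3). It was 0.061 over chromosome 16 (Mrtfb) and 0.089 over 2 (Scai). Myocd, the muscle-specific SRF partner, was at most 0.120 TPM in 1151 and listed at 0 in all 2838 libraries. In 2838 none of the 7 passed on clone means or in all pairs. None had an unadjusted p under 0.05 on clone means, a threshold at which all genes were not counted. Srf was higher in clone 42 (45.8, 41.2 and 39.1 TPM) than in clone 17 (30.3, 22.7 and 27.1 TPM), by 0.64 (SE 0.17, limma, adjusted p = 0.0232), a comparison that called 17.2% of all genes. That call was lost centred per chromosome, without clone 17 replicate 2 or 3, and without any one library of clone 42.

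Other genes of the actin and SRF-MRTF programme moved in both directions in 1151. Of the 32 tested of 34 listed, 15 rose, 7 fell and 10 did not pass, beside 34.0% of all genes higher and 27.0% lower, with a median of 0.064 beside 0.055 over all genes. The largest differences were in Myh10, the non-muscle myosin IIB heavy chain, and in Flnc. Myh10 was 20.1, 19.7 and 23.5 TPM in knockout-labelled and 0.0519, 0.322 and 0.0300 TPM in re-expressing libraries (4.29, SE 0.13, limma, adjusted p = 1.16e-06). Myh10 passed the filter of this fit only through the knockout-labelled libraries, where it was high, so its adjusted p adds no separate support. All 2838 libraries held Myh10 at 18.7 to 44.9 TPM, so here, as with Tpm2, the re-expressing 1151 libraries were below all others. Flnc showed the reverse arrangement, at 96.8 to 114 TPM in knockout-labelled 1151 libraries and 4.37 to 31.0 TPM in 2838, where re-expressing libraries (7.20 to 7.84 TPM) lay within the range. Of the other non-muscle myosin II heavy chains, Myh9 (myosin IIA) rose from 85.8 ± 5.29 to 283 ± 14.5 TPM (1.71, adjusted p = 3.11e-06) and Myh14 (myosin IIC) fell from 4.12 ± 0.695 to 1.33 ± 0.421 TPM (-1.14, adjusted p = 9.53e-04). Vil1, villin, the actin bundler of epithelial microvilli, fell from 41.3 ± 2.18 to 4.91 ± 0.937 TPM (-2.85, adjusted p = 4.55e-06), and Csrp2, a LIM protein, from 327 ± 17.6 to 174 ± 17.9 TPM (-0.91, adjusted p = 1.23e-04). Of the cytoplasmic actins, Actb rose (1810 ± 80.6 to 2343 ± 208 TPM, 0.37, adjusted p = 0.00966) and Actg1 was 2583 ± 19.9 and 2310 ± 155 TPM (-0.16, adjusted p = 0.105).

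**Figure D5:**
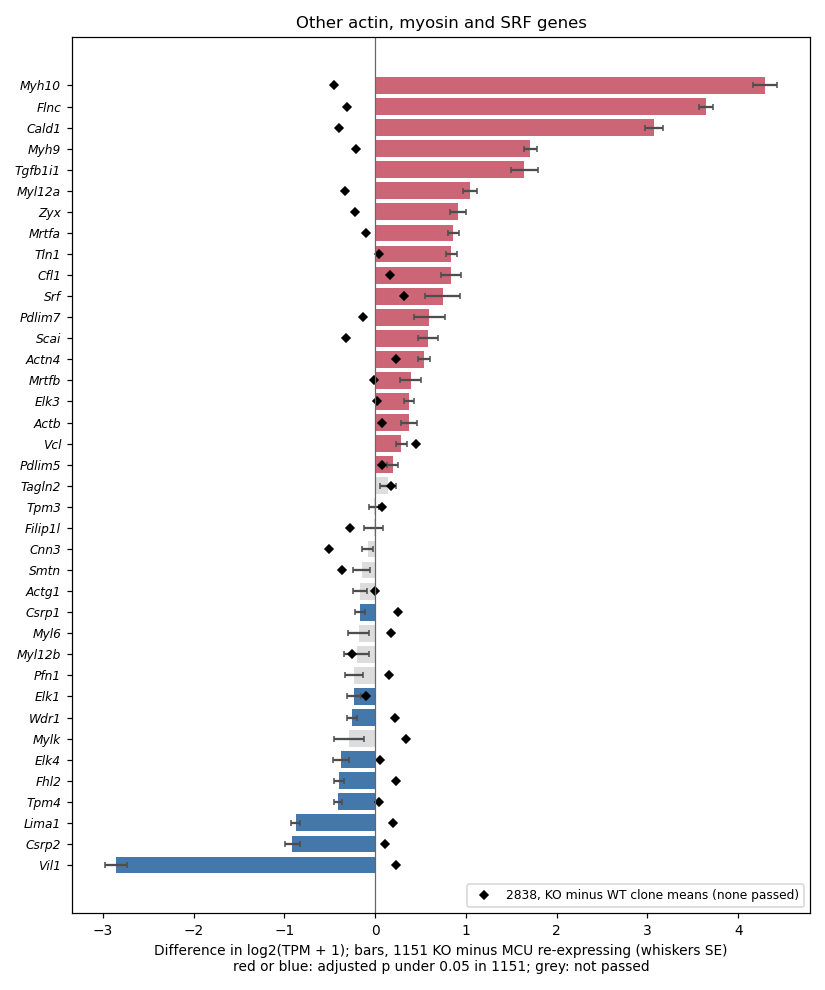
Differences in log2(TPM + 1) for the other actin and SRF-MRTF genes and for SRF and its partners (y axis); bars are 1151 libraries labelled knockout minus re-expressing (whiskers SE, coloured at an adjusted p under 0.05) and diamonds the 2838 clone means, none of which passed. Myh10 (4.29) and Flnc (3.64) are at one end and Vil1 (-2.85) at the other.

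Immediate-early genes, the targets of SRF with Elk-family factors, had 3 higher and 1 lower of 6 tested in 1151, beside 61.0% of all genes called. The count of rises was 1 with a mean of at least 5 TPM, and the count of falls was 2 with no filter and 0 centred per chromosome. Fosb was 3.35 ± 0.304 TPM in knockout-labelled and 0.590 ± 0.120 TPM in re-expressing libraries (1.45, limma, adjusted p = 5.62e-05), and Nr4a1 was 14.2 ± 1.66 and 5.10 ± 0.330 TPM (1.32, adjusted p = 5.07e-05). Only the knockout-labelled libraries, where it was high, brought Fosb past the filter, so its adjusted p adds no separate support. Fos was 4.19 ± 0.845 and 1.80 ± 0.379 TPM (0.89, adjusted p = 0.00243), and Ier2 was lower (-0.36, adjusted p = 0.00297). In 2838 no immediate-early gene and none of the 32 other actin genes passed on clone means or in all pairs. On clone means, 1 immediate-early gene and 2 of the other actin genes had an unadjusted p under 0.05, a threshold at which all genes were not counted. By library, Fos was higher in the 2838 clones labelled knockout with no overlap, as were the arms of 5.04% of all genes tested, counted in both directions. It was 5.59 to 6.23 TPM in clone 17 and 10.1 to 12.1 TPM in clone 42. The highest values were 3.90 TPM in clone 15 and 3.84 TPM in clone 22. The other immediate-early genes listed overlapped between the 2838 arms.

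The genes did not vary as one group over the 18 libraries. The highest Pearson correlation of log2(TPM + 1) between 2 of the 7 tested genes was 0.81, between Tpm1 and Dbn1, both of which were lowest in 1151 re-expressing libraries and highest in the wild-type clones. Actn1 and Flna had 0.64. Cnn2 and Dbn1 had -0.51. The libraries share line, batch and group, so these values are descriptions with no test. Among 9399 genes with a mean of at least 5 TPM, no gene was among the 3 nearest patterns of more than 1 of the 10. Tpm2 was nearest to Id3 (r = 0.99), Crip1 (0.98) and Abcc3 (0.97), and Cnn2 to Sgta, Stip1 and Cfl1 (0.97 each). Cfl1, cofilin, severs actin filaments. Actn1 was nearest to Patl1, Tasor2 and Scaf11 (0.97 each), and Dbn1 to C1s1 (0.98), Spp1 and Igfbp7 (0.96 each). Tpm1 was nearest to Nrarp (0.94), Atxn7l2 (0.93) and Cbx6 (0.92), and Flna to Rnf213 (0.90), Heatr1 (0.84) and Dync1h1 (0.83). For Tagln the highest value was 0.60 (Ercc2), and for the 3 genes near 0 the correlations rest on a few libraries above 0.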

How the data were processed

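Values for 35642 gene symbols were deposited by the authors as TPM. The submitters' processing notes name Salmon, DESeq2 and mm10; versions and annotation were not given in the sources used here. TPM scales each library to a fixed total, so a change in abundant genes shifts all others, and depth is lost; no counting interval was given. Columns summed to 998353 to 998961 TPM. Tests used limma 3.58.1 (R 4.3.3) on log2(TPM + 1) with a trended prior and Benjamini-Hochberg adjustment over all genes with 1 TPM or more in 3 or more of a fit's libraries; a call had an adjusted p under 0.05. This scale understates the change of low genes. Line 1151 was tested over 6 libraries. For 2838, 2 clone means were tested against 2, and all 4 pairs of clones over 12 libraries. The interaction was tested on the 6 group means. The fits were tested on simulated data, where the interaction fit recovered only the largest changes, the clone-mean fit missed most small ones, and the count of clone pairs made many false calls.

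The 10 genes and 19 other lists were chosen with earlier results of these data known. From each other list, up to 4 genes were named: the 2 highest and the 2 lowest differences among those called in 1151, and the same in 2838 among those called in all pairs, with the 2 most abundant where none was called. SRF partners were always named, paralogs only in part, and likeness was the 3 highest Pearson correlations. Replicate 3 of clone 22, named for its low gene count, was singled out after its values were seen. Alternatives were another pseudocount (0.1), no filter, a minimum mean of 5 TPM, scaling by median of ratios, a replicate block, no trend, quantile normalization, leaving out mitochondrially encoded genes, other units of replication, leaving out each library or clone and, added after seeing the data, centring per chromosome. Some genes and 1 list are not reported here. Positions came from GENCODE M21 and promoters from RefSeq.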

Additional observations from a re-analysis of the deposited data

Results flagged for a closer look

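Dbn1 differed in opposite directions in the 2 lines. It was higher in each 1151 library labelled knockout (4.24 to 4.73 TPM) than in any labelled re-expressing (2.56 to 2.84 TPM), and lower in each 2838 library labelled knockout (8.66 to 24.8 TPM) than in any labelled wild type (35.3 to 78.2 TPM). The difference of the 2 effects was 2.54 on the log2(TPM + 1) scale and did not pass on group means (limma, adjusted p = 0.361). Over 18 libraries it did (limma, adjusted p = 4.36e-04), a fit that takes the libraries of a clone as independent.

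Cdh5, VE-cadherin, stood in the list of leukocyte and endothelial markers and differed between the lines by the interaction itself (-2.56, limma, adjusted p = 0.0355). It was 4.84, 4.63 and 5.31 TPM in the 1151 libraries labelled re-expressing and at most 0.0170 TPM in those labelled knockout. In 2838, Cdh5 was listed at 0 in 11 of 12 libraries and was 0.0181 TPM in replicate 3 of clone 17. Cdh5 passed the filter only through the re-expressing 1151 libraries, the group where it was high, so its adjusted p adds no separate support. The spread of Cdh5 in the interaction fit came only from the 2838 clones, where it was at or near 0.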

How the results depend on the processing

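In 1151, the 5 rises of Tpm2, Cnn2, Actn1, Flna and Dbn1 kept direction and call in every alternative in which the gene was tested. The count of rises was 4 with a mean of at least 5 TPM, where Dbn1 was not tested, and 7 with no filter. The added calls with no filter were Acta2 and Cnn1, which entered that fit only through the knockout-labelled libraries. The count was 5 to 6 when leaving out a library, and no gene fell. In 2838, Dbn1 kept its all-pairs call in all 21 alternatives. For the 2838 arms, 1 of the 7 genes, Dbn1, was lower over 12 libraries with a replicate block and no clone term, a fit that takes the libraries of a clone as independent (adjusted p = 0.00650), and over 12 libraries with clone as a random block (0.00701). The random block applies a clone correlation shared by all genes. The spread of Dbn1 between clones enters that fit, but the clone correlation of Dbn1 itself does not. On clone means, Dbn1 was -1.34 without clone 17 and -2.61 without clone 42. These fits leave 1 clone against 2, so only the differences are given. Their spread is largely borrowed from other genes, and the lone clone is assumed to vary like the rest. The count lower in clone 22 than in clone 15 was 1 (Dbn1) with median-of-ratios scaling and with quantile normalization, and 0 to 1 when leaving out a library. The all-pairs count of higher genes was 0 to 1, with Tpm2 called without clone 22 replicate 3. The interaction count of higher genes was 1 with no filter (Cnn1), 1 centred per chromosome (Tpm2, 2.20, adjusted p = 0.0414), 6 over 18 libraries and 6 over 18 libraries with a replicate block. The cause was not tested.

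Signs reversed only for differences that passed in no setting, the largest of them being Actn1 for clone 22 minus 15 (-0.34). On clone means, Actn1 was -0.047 with median-of-ratios scaling, -0.057 with quantile normalization, -0.18 centred per chromosome, -0.13 without clone 22, -0.00051 without clone 42 and -0.15 to 0.13 leaving out a library. Cnn2 was -0.065, -0.056 and -0.15 under the first 3 of these settings, -0.10 without clone 15 and -0.076 to 0.075 leaving out a library. Tagln was -0.11 without clone 22. For clone 42 minus 17, Cnn2 was 0.011 with median-of-ratios scaling, 0.016 with quantile normalization, 0.040 without mitochondrially encoded genes and 0.036 centred per chromosome, and Actn1 was -0.00024 centred per chromosome; leaving out a library gave -0.014 to 0.018 for Cnn2, -0.21 to 0.057 for Flna and -0.29 to 0.14 for Tagln. For clone 22 minus 15, Flna was -0.049 with quantile normalization and -0.0028 to 0.19 leaving out a library. Actn1 was -0.34 with all libraries, -0.53 to 0.032 leaving out a library, and positive only without clone 22 replicate 3. In 1151, Tagln was -0.015 with quantile normalization and -0.16 to 0.41 leaving out a library. The Tagln interaction was 0.21 without clone 22 and -0.35 to 0.22 leaving out a library. Counts over all genes moved more: over all alternatives, 9 on clone means became 0 to 398, 119 in all pairs 65 to 457, 226 for clone 22 minus 15 became 85 to 807, 2031 for clone 42 minus 17 became 1161 to 4887, and 137 in the interaction 0 to 3140, while 7098 in 1151 became 5925 to 7391. Without clone 22 replicate 3, clone 42 minus 17 gave 4887 and clone 22 minus 15 gave 807.

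Scaling moved the median difference of all genes for clone 22 minus 15 from -0.157 to -0.0089 (median-of-ratios), -0.0032 (quantile) and 0.033 (per chromosome), and that of the clone means from 0.075 to -0.029 per chromosome. Replicate numbers did not pair the samples: correlations of deviations for 21 pairs of same-numbered libraries were -0.153 to 0.196, with 4 over 0.1. With a replicate block, 5 genes rose in 1151. Depth was unknown, so counting error could not be told from other spread for Acta2, Myl9, Cnn1 and Tagln.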
